A study of Mus musculus with 2 samples.

Results

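Npas4, Nr4a1, Nr4a2, Nr4a3, Arc, Egr1, Egr2, Egr3, Egr4 and Nab2 form a set of 10 activity-dependent regulators outside the AP-1 family, here followed in RNA of mouse pancreatic islets. They were taken by gene name from a table of raw read counts, and all 10 of 10 were present among its 54532 gene IDs. All 10 also had at least 10 reads over both libraries, the minimum used for a measured gene, which 17709 genes met. The transgenic library, titled Line20, came from C57BL/6 male mice over-expressing Brsk2, and the library it is set against from wild-type C57BL/6 males. Brsk2 is a protein kinase related to AMPK. All these mice, transgenic and wild type, were 10 to 12 weeks old. At 8 to 10 weeks they had been given doxycycline, a drug used to control some inducible transgenes, in their water over 4 days. The promoter and cell type that drive the transgene, and whether islets of several mice were pooled, are not stated in the sources used here. Each genotype had 1 library, which leaves the spread between animals unmeasured, and genotype cannot be told apart from any other difference between the 2 islet preparations.

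The set is best known from neurons and is also switched on in beta cells. Membrane depolarisation opens voltage-gated calcium channels, and the calcium that enters acts through calmodulin-dependent kinases and MAP kinases on transcription factors already present in the nucleus, chiefly CREB with its CRTC coactivators, SRF with ELK factors, and MEF2. These switch on immediate early genes without new protein synthesis, and the transcripts are short-lived. In islets glucose and other secretagogues that depolarise beta cells are known inducers.

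Most of the set was lower in the transgenic library. Of the 10 genes, 7 were lower, 1 (Nab2) was higher and 2 (Nr4a2 and Nr4a3) were neither, where a gene is called lower or higher if the ratio of its scaled counts passed 1.5-fold and the 95% interval of that ratio excluded 1. Over all measured genes the same rule called 5.89% lower and 7.78% higher. At 2-fold, 4 were lower and 0 higher, against 2.53% and 4.26% of all measured genes; where the interval bound nearest 1 had to pass 1.5-fold itself, 5 were lower and 0 higher, against 2.04% and 2.47%. The median log2 ratio was -0.82 over the 10 genes and 0.01 over all measured genes. Together the 10 genes had 4524 reads in the transgenic library and 10125 in the wild-type library, which is 265 and 503 CPM, reads scaled to the adjusted library size, and a ratio of 0.527 [0.509, 0.546]. Ratios are transgenic over wild type throughout, and square brackets hold the exact 95% interval, which covers counting error only.

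Some properties of the 2 libraries moved together with these genes. Brsk2 itself had 1609 reads in the transgenic library and 732 in the wild-type library, a ratio of 2.59 [2.37, 2.83]. Total reads were 16832312 and 20389499. Of 16 acinar cell markers 15 were higher and 1 lower. The 16 summed to 51962 CPM in the transgenic library and 11729 CPM in the wild-type library. Of 12 beta cell markers 8 were lower and none higher, with ratios between 0.292 and 1.37 and a median ratio of 0.605. Those 12 summed to 194890 CPM in the transgenic library and 256102 CPM in the wild-type library, and Ins2, their most abundant member, marked both libraries as islet RNA at 16.2% and 19.7% of reads. Of 12 pan-endocrine secretory genes, such as Chga, none was called in either direction, with a median ratio of 1.14. Of 8 alpha cell markers 3 were higher and none lower (median ratio 1.44), and of 5 delta and gamma cell markers 1 was higher and none lower (1.44). Of 10 stromal markers (fibroblast, stellate, mural) 5 were higher and 1 lower (1.78), and of 5 red blood cell markers 4 were higher and none lower (1.96). Of 8 Schwann and neural cell markers 2 were lower and 2 higher, and they summed to 125 CPM in the transgenic library and 173 CPM in the wild-type library, with none at 0. Mbp alone made up 104 CPM of the transgenic sum and 157 CPM of the wild-type sum. Of the 8, 4 had a ratio below 1. In bulk RNA, fewer cells of a type and less RNA per cell cannot be told apart, and the part of these marker differences in the results below was not tested. Where the libraries were scaled to the median ratio of the beta cell markers instead, 3 of the 10 genes were lower (Egr4, Arc and Nr4a1) and Nab2 was higher. Under that scaling 96 of the 17709 measured genes were lower and 10113 higher.

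RefSeq promoters on build GRCm38.p6, each 250 bases before to 50 bases after a transcription start, were found for 7 of the 10 genes: Npas4, Nr4a1, Nr4a2, Nr4a3, Egr2, Egr4 and Nab2. They were searched on either strand for TGACG, the core of the cAMP response element that CREB binds. Of all 32851 RefSeq promoters, 20.8% held at least 1 such match, 5.01% at least 2 and 0.231% at least 4. Nr4a1, Nr4a2 and Nr4a3 held 4 each, Npas4 and Egr4 held 2 each, and Nab2 held none. Egr2 held 2 at 3 of its 5 listed starts, the same pair in overlapping windows, and none at the other 2. The stretches below run 5′ to 3′ on the gene's own strand and carry the matches in capitals (CGTCA where the match lies on the opposite strand). They are shown because the NR4A genes share the count of matches while Nr4a1 differed in ratio from Nr4a2 and Nr4a3. Nab2, the gene that was higher, has none, as do most promoters and some starts of Egr2. A link between matches and ratios was not tested. Bases that an annotated exon covers were left out, except in a window of 30 bases for Npas4.
Nr4a1, chr15:101266596-101266845, plus strand: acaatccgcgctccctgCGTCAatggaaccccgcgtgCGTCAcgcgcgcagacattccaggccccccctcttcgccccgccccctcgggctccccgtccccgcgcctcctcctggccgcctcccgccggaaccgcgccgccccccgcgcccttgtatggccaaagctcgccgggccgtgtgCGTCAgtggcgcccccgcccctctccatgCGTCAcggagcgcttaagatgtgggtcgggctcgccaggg
Nr4a2, chr2:57124004-57124253, minus strand: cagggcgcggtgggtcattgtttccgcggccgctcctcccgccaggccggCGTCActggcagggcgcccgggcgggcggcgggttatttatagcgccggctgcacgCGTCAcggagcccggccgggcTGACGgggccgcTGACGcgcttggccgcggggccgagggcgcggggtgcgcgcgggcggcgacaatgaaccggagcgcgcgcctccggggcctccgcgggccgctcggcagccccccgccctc
Nr4a3, chr4:48045055-48045152, plus strand: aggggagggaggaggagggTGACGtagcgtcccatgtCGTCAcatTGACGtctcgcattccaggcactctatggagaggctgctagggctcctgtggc
Npas4, chr19:4990128-4990157, minus strand: cgttcgaCGTCAcgggaTGACGtcggaagt
Egr4, chr6:85513590-85513839, minus strand: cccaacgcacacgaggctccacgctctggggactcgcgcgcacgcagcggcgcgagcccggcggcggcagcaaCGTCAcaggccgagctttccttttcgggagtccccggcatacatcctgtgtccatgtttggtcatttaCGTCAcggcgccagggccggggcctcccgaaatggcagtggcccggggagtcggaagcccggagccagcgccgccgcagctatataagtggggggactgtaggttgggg
Nab2, chr10:127666711-127666900, minus strand: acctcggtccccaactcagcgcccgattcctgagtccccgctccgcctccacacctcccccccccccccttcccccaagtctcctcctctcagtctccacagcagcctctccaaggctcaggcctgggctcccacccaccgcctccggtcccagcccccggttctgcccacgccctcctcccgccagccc

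The stretch of Nr4a3 shows 3 of its 4 matches, since the other lies in an annotated exon. None of the 7 genes had the full palindrome TGACGTCA, which 1.79% of all promoters held and which contains the core on each strand. Of the 5 starts listed for Egr2, 4 carried a match to the CArG box, the site SRF binds, though overlapping windows shared a match. Such a match was found in 1.63% of all promoters and at no other of the 7 genes. Looser forms of the site were not searched for, so SRF sites at the other genes are not excluded. An Egr2 match is shown in capitals at a listed start, because Srf was itself lower, as given below. Any link between Srf and Egr2 was not tested.
Egr2, chr10:67537484-67537513, plus strand: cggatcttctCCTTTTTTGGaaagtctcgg
The element bound by NR4A receptors, AAAGGTCA, was in 1.51% of promoters and that bound by EGR factors, GCGTGGGCG, in 0.612%, and neither was in the promoters of the 7 genes. The core of the NPAS4 motif, TCGTG, was in 16.04% of promoters and in that of Egr4. A match to these letters is a description of the window and not evidence of binding.

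Npas4 (ENSMUSG00000045903, chromosome 19, 4984355 to 4989971, minus strand) encodes a transcription factor of the bHLH-PAS family that responds with high selectivity to calcium entry and works as a dimer with Arnt or Arnt2. It had 1038 reads in the transgenic library and 2745 in the wild-type library. These correspond to 60.9 and 136 CPM, a ratio of 0.446 [0.415, 0.479]. With the deposited gene length it was the most abundant of the 10 genes per kilobase of exon in both libraries, at 18.6 CPM per kilobase in the transgenic and 41.6 in the wild-type library. The deposited length of Npas4, 3277 bases, is shorter than the 4136 bases of its exons in GENCODE M21, and with the longer length its levels were 14.7 and 33.0 CPM per kilobase, below Egr1 and Nab2 in the transgenic library and close to Nr4a1 in the wild-type library. For the other 9 genes the lengths were equal. Scaled to the beta cell markers, the ratio of Npas4 was 0.737 [0.686, 0.792] and no longer passed 1.5-fold.

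Neither dimer partner of Npas4 was called. Arnt had a ratio of 1.01 [0.926, 1.11], with 52.8 CPM in the transgenic library and 52.1 CPM in the wild-type library. Arnt2 had a ratio of 1.02 [0.865, 1.21].

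The NR4A genes encode orphan nuclear receptors that bind DNA without a known circulating hormone and whose activity is set largely by how much of them is made. Nr4a1 (ENSMUSG00000023034, chromosome 15, 101254269 to 101274795, plus strand) dominated the family and differed most. It had 675 reads in the transgenic library and 2282 in the wild-type library, or 39.6 and 113 CPM, with a ratio of 0.349 [0.320, 0.380]. Among 11390 protein-coding genes with at least 100 reads, only 16, Nr4a1 included, had a ratio this low or lower.

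The other NR4A genes were not called. Nr4a2 (ENSMUSG00000026826, chromosome 2, 57106830 to 57124003, minus strand), known for its role in dopamine neurons, had 127 reads in the transgenic and 182 in the wild-type library, a ratio of 0.823 [0.651, 1.04]. Nr4a3 (ENSMUSG00000028341, chromosome 4, 48045153 to 48086447, plus strand) had 80 reads in the transgenic and 119 in the wild-type library, a ratio of 0.793 [0.590, 1.06]. Both intervals held 1, and both also reached past 1.5-fold lower, so a difference of that size was not excluded. The side of 1 depended on the scaling. Scaled to the beta cell markers, Nr4a2 stood at 1.36 [1.08, 1.72] and Nr4a3 at 1.31 [0.975, 1.75]. Scaled to the pan-endocrine genes, Nr4a2 stood at 0.719 [0.569, 0.907] and Nr4a3 at 0.693 [0.515, 0.927]. Neither gene was called under these scalings.

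The make-up of the NR4A family therefore differed between the libraries, in a comparison that does not depend on how libraries are scaled. Nr4a1 took 76.5% of NR4A reads in the transgenic library (exact interval 73.6 to 79.3) and 88.3% in the wild-type library (87.0 to 89.6). Nr4a2 took 14.4% in the transgenic library (12.1 to 16.9) and 7.05% in the wild-type library (6.09 to 8.10). The ratio of Nr4a2 was 2.36 times that of Nr4a1 [1.83, 3.02], and the ratio of Nr4a3 was 2.27 times that of Nr4a1 [1.67, 3.08]. The ratios of Nr4a2 and Nr4a3 did not differ from each other beyond counting error, at 1.04 [0.711, 1.52]. Per kilobase of exon, Nr4a1 stood at 11.3 CPM in the transgenic and 32.3 CPM in the wild-type library, Nr4a2 at 1.83 and 2.23, and Nr4a3 at 0.783 and 0.988.

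**Figure D1:**
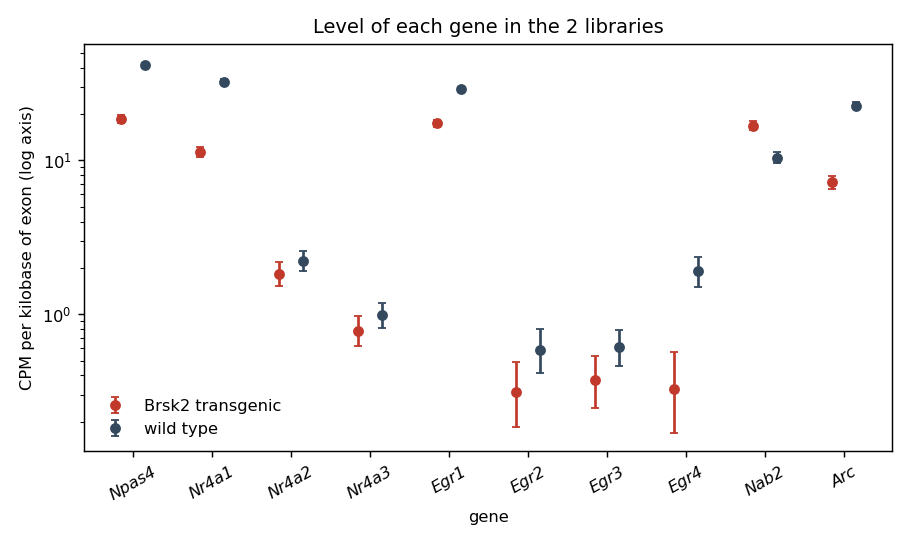
Levels of the 10 genes in CPM per kilobase of exon on a log axis, with red points for the Brsk2 transgenic library and dark points for the wild-type library; bars are exact 95% Poisson intervals of the reads and cover counting error only. Nab2 is the only gene whose transgenic point, at 16.8, lies above its wild-type point, at 10.4, and the intervals of Nr4a2, Nr4a3, Egr2 and Egr3 overlap between libraries.

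The EGR genes encode zinc-finger transcription factors that recognise GC-rich sites and are induced through SRF, ELK factors and CREB. Egr1 (ENSMUSG00000038418, chromosome 18, 34859823 to 34864984, plus strand), the broadly expressed member, had 1330 reads in the transgenic library and 2608 in the wild-type library. Its levels were 78.0 and 130 CPM, a ratio of 0.602 [0.563, 0.643]. Egr1 accounted for 95.8% of EGR reads in the transgenic library (exact interval 94.6 to 96.8) and 93.7% in the wild-type library (92.7 to 94.6).

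Egr4 showed the lowest ratio of the 10 genes, from few reads. Egr4 (ENSMUSG00000071341, chromosome 6, 85511121 to 85513589, minus strand) had 12 reads in the transgenic library and 82 in the wild-type library, a ratio of 0.173 [0.0857, 0.318]. Its share of EGR reads was 0.865% in the transgenic library (0.448 to 1.51) and 2.95% in the wild-type library (2.35 to 3.64), and these intervals do not overlap. The ratio of Egr1 was 3.48 times that of Egr4 [1.88, 7.04].

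Egr2 and Egr3 were scarce, at 1.06 and 1.64 CPM in the transgenic library and 1.99 and 2.68 CPM in the wild-type library. Egr2 (ENSMUSG00000037868, chromosome 10, 67535475 to 67542188, plus strand), known for its role in myelinating Schwann cells and in lymphocytes, had 18 reads in the transgenic and 40 in the wild-type library, a ratio of 0.531 [0.286, 0.947]. Egr3 (ENSMUSG00000033730, chromosome 14, 70077203 to 70082614, plus strand) had 28 reads in the transgenic and 54 in the wild-type library, a ratio of 0.612 [0.373, 0.983]. The upper bounds of both lie close to 1, and with plain library totals the interval of Egr3 held 1. With the beta cell markers as the scale, Egr1 stood at 0.994 [0.930, 1.06], Egr2 at 0.877 [0.473, 1.57] and Egr3 at 1.01 [0.616, 1.62].

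Nab2 (ENSMUSG00000025402, chromosome 10, 127660918 to 127668568, minus strand) encodes a co-repressor that binds EGR factors and restrains their activity, and it is itself a known EGR target. It had 841 reads in the transgenic library and 617 in the wild-type library, or 49.3 and 30.7 CPM, a ratio of 1.61 [1.45, 1.79]. Against Egr1, the factor it restrains, its ratio was 2.67 times as high [2.36, 3.03], a value free of library scaling. Scaled to the pan-endocrine genes, Nab2 stood at 1.40 [1.26, 1.56] and was no longer called. Nab1, the related co-repressor, had a ratio of 0.873 [0.801, 0.951] and was not called.

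Nab2 is the only one of the 10 genes that overlaps other genes in the count table. Its span shares 40 bases with Stat6 and 1668 bases with Nemp1, both on the opposite strand; a further gene on that strand, Gm16229, had 0 reads in each library. The sources used here do not say whether reads were counted by strand, so reads of these genes could have been divided between them. Stat6 had 717 reads in the transgenic and 852 in the wild-type library, a ratio of 0.993 [0.898, 1.098]. Nemp1 had 111 reads in the transgenic and 72 in the wild-type library, a ratio of 1.82 [1.34, 2.48].

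Arc (ENSMUSG00000022602, chromosome 15, 74669083 to 74672570, minus strand) encodes no transcription factor or cofactor; in neurons its protein acts at synapses in the removal of glutamate receptors. It had 375 reads in the transgenic library and 1396 in the wild-type library, which is 22.0 and 69.4 CPM. The ratio was 0.317 [0.282, 0.355]. In that same ranking of 11390 genes 11, Arc included, had a ratio this low or lower. Scaled to the beta cell markers, Arc stood at 0.524 [0.466, 0.587].

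**Figure D2:**
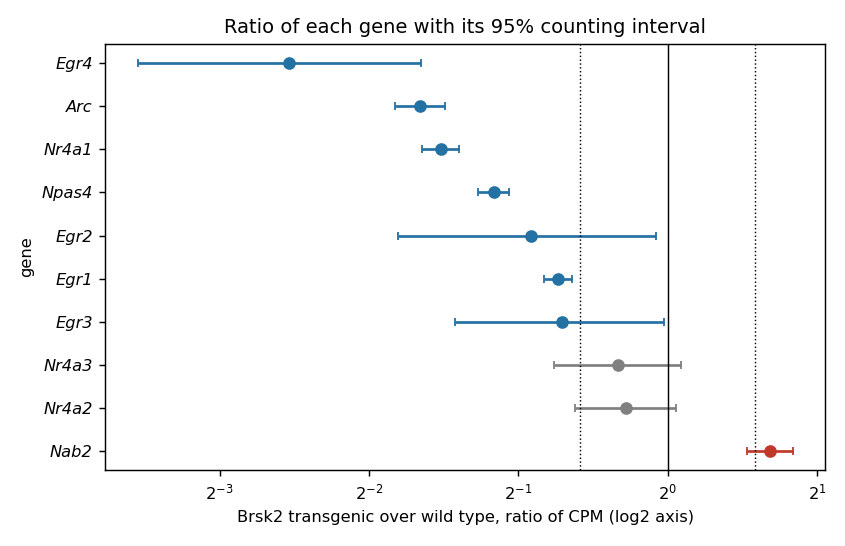
Transgenic over wild-type ratio of CPM for each gene on a log2 axis, from the lowest at the top, with exact 95% intervals; blue marks lower, red higher and grey neither, and dotted lines mark 1.5-fold. Egr4, Arc, Nr4a1 and Npas4 lie below 0.5, while the intervals of Nr4a2 and Nr4a3 cross 1.

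In order of their ratios the genes ran from Egr4 through Arc, Nr4a1, Npas4, Egr2, Egr1, Egr3, Nr4a3 and Nr4a2 to Nab2. Of the 9 pairs of neighbours in that order, only Npas4 against Nr4a1 (1.28 times [1.14, 1.43]) and Nab2 against Nr4a2 (1.95 times [1.51, 2.53]) differed beyond counting error. Egr4 and Arc, although far apart in value, did not (1.84 times [0.983, 3.74]). Among the abundant genes, the ratio of Egr1 was 1.35 times that of Npas4 [1.22, 1.49].

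The order of levels differed between the libraries. Per kilobase of exon, with the deposited lengths, the transgenic library had Npas4, Egr1, Nab2, Nr4a1 and Arc at 18.6, 17.4, 16.8, 11.3 and 7.19 CPM. The wild-type library had Npas4, Nr4a1, Egr1, Arc and Nab2 at 41.6, 32.3, 28.9, 22.7 and 10.4 CPM. In the transgenic library the counting intervals of Npas4 (17.5 to 19.7), Egr1 (16.5 to 18.3) and Nab2 (15.7 to 17.9) formed an overlapping chain, and in the wild-type library no neighbours among these 5 overlapped. The other 5 genes were at or below 1.83 CPM per kilobase in the transgenic library and 2.23 in the wild-type library.

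The authors' deposited table of genes different between the libraries lists 108 genes, 20 of them lower, and 2 of the 10 genes are among them. In the authors' deposited table Egr4 has a log2 fold change of -2.52 with an adjusted p-value of 0.0050, and Arc one of -1.66 with an adjusted p-value of 0.028. The sources used here do not say how those p-values were obtained from a single library of each genotype, and they do not measure a spread between animals. Nr4a1, at a log2 ratio of -1.52 here, was just under the smallest change in the authors' deposited table, 1.57 in absolute log2 fold change.

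**Figure D3:**
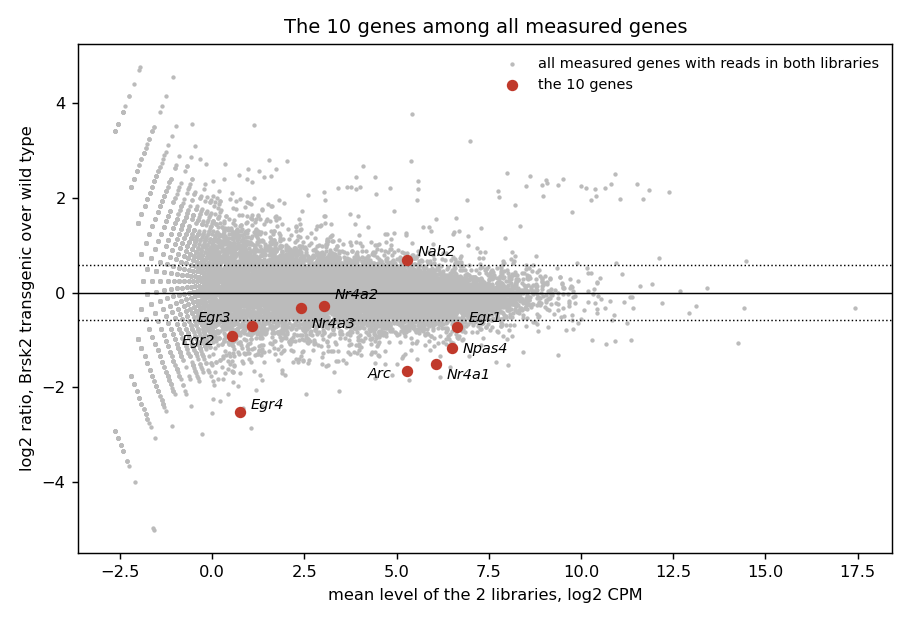
Log2 ratio of transgenic over wild type against the mean level in log2 CPM, for measured genes with reads in both libraries (grey) and the 10 genes (red), with dotted lines at 1.5-fold. Arc, Nr4a1 and Npas4 lie at -1.66, -1.52 and -1.16 along the lower edge of genes of similar level, and Nab2 lies at 0.69.

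Few genes that act upstream of the set were called, except where the libraries were scaled to the beta cell markers. Among all measured genes 5.89% were lower and 7.78% higher, so few calls are common in lists of this length. The ATP-sensitive potassium channel couples glucose metabolism to depolarisation. Of 12 subunits of this channel and of voltage-gated calcium channels, none was called, and 10 had a ratio under 1. The lowest was the calcium channel beta subunit Cacnb3, with 65.7 CPM in the transgenic and 90.1 CPM in the wild-type library, a ratio of 0.729 [0.676, 0.786]. Cacna1c, a pore-forming subunit of L-type channels, had a ratio of 0.818 [0.737, 0.907], and Cacna1h, of a T-type channel, 0.765 [0.638, 0.916]. Abcc8, the sulphonylurea receptor and the most abundant of the list, had a ratio of 1.06 [1.04, 1.09]. With scaling to the beta cell markers, 4 of these 12 subunits were higher and 0 lower. Of the 20 calcium sensors and kinases below, 17 were then higher and 0 lower. Of the 23 transcription factors and co-regulators, 14 were higher and 1 lower. Among all 17709 measured genes 10113 were higher and 96 lower under that scaling.

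Of 20 calcium sensors, calmodulin-dependent kinases, calcineurin subunits and calcineurin regulators, none was called. Their median log2 ratio was 0.09. Camkk1, a kinase that activates other calmodulin-dependent kinases, had the lowest ratio of those with at least 100 reads, 0.710 [0.555, 0.906]. Camk1g had a ratio of 1.37 [1.07, 1.76], and the calcineurin catalytic subunit Ppp3ca had a ratio of 1.31 [1.20, 1.43].

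Among 24 stimulus-regulated transcription factors and their co-regulators, 23 were measured. Of these, 2 were lower and none was higher, beside 5.89% and 7.78% of all measured genes. The median log2 ratio was -0.01. Srf, which binds the CArG box, was both the most abundant and the lowest, with 2130 reads in the transgenic library and 6996 in the wild-type library, or 125 and 348 CPM. Its ratio was 0.359 [0.342, 0.377]. The other lower gene was Elk3, an ETS factor that works with SRF, at 0.637 [0.552, 0.734]. Creb1 was at 0.900 [0.820, 0.987] and its coactivators Crtc1, Crtc2 and Crtc3 at 1.09, 0.965 and 0.840, none of them called. Nfatc2, a factor activated by calcineurin, had the highest ratio, 1.39 [1.28, 1.51].

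Of 11 dimer partners and cofactors of the set, 10 were measured and none was called, with a median log2 ratio of -0.01. Beside this, 5.89% of all measured genes were lower and 7.78% higher. The co-repressor gene Ncor1, the most abundant of them, was at 0.871 [0.826, 0.919], and Ddx20, whose protein binds Egr2, was at 0.782 [0.678, 0.900]. Rxra and Rxrb, which pair with Nr4a1 and Nr4a2, were at 1.02 [0.910, 1.14] and 1.03 [0.931, 1.14].

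Other genes of the rapid primary response were lower in part. Of 27, 12 were lower, none higher and 15 neither, beside 5.89% lower and 7.78% higher among all measured genes. Of the 27, 24 had a ratio under 1, and the median log2 ratio was -0.50. These counts depended on the scaling and the rule. Scaled to the beta cell markers, 2 were lower and 6 higher, with a median log2 ratio of 0.22. All measured genes then had 96 lower and 10113 higher. Scaled to the pan-endocrine genes, 16 were lower and 0 higher. The 2-fold rule left 3 lower. The rule asking the whole interval to lie beyond 1.5-fold left 6 lower. Fosb, an AP-1 subunit and the most abundant of the list, had 2607 reads in the transgenic library and 8952 in the wild-type library, a ratio of 0.344 [0.329, 0.359]. The stress-responsive kinase Plk3 was at 0.396 [0.365, 0.430] and the clock repressor Per1 at 0.483 [0.446, 0.522]. The remaining lower genes were Fos, Junb, Csrnp1, Csrnp2, Sik1, Coq10b, Gadd45b, Gem and Sertad1, with ratios between 0.516 and 0.656. The 15 not called ran up to Zfp36l2 at 1.12 [1.01, 1.24] and Ier3 at 1.13 [1.01, 1.26], the highest ratios of the list. They also held Rgs2 at 0.702 [0.664, 0.741] and Maff at 0.706 [0.669, 0.745], whose intervals lay below 1.

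Genes that activity induces later in neurons were divided. Of 25, 22 were measured, 3 were lower, 4 higher and 15 neither, with a median log2 ratio of -0.20. Among all measured genes 5.89% were lower and 7.78% higher. The lower ones were the MAP kinase phosphatase gene Dusp4, at 0.489 [0.442, 0.540], the chromatin remodelling subunit Baz1a, at 0.561 [0.486, 0.646], and Lonrf1, at 0.623 [0.534, 0.724]. The higher ones had few reads: Tac1, the substance P precursor, had 73 in the transgenic and 52 in the wild-type library (1.66 [1.14, 2.41]), Ptgs2 58 and 44, Penk 25 and 7, and Rasgrp1 16 and 7. Scg2, a granule protein gene and the most abundant, was at 1.02 [1.02, 1.03]. Bdnf, the classic Npas4 target of neurons, had 13 reads in the transgenic and 16 in the wild-type library, too few to place its ratio (0.958 [0.424, 2.13]).

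Genes linked to NR4A or EGR factors in other settings were seldom called, as were all measured genes (5.89% lower and 7.78% higher). Of 18, 17 were measured, of which 1 was higher and none was lower; the median log2 ratio was -0.07. The higher one was the hexokinase gene Hk2, with 45 reads in the transgenic and 31 in the wild-type library (1.71 [1.06, 2.80]). Tgfb1, a growth factor gene, was at 0.705 [0.595, 0.835], and Nr2f6 at 0.740 [0.679, 0.807]. Cdk5r1, which encodes the p35 activator of Cdk5 and is linked to Nr4a1 in beta cells, had 136 reads in the transgenic and 114 in the wild-type library, a ratio of 1.41 [1.09, 1.82].

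**Figure D4:**
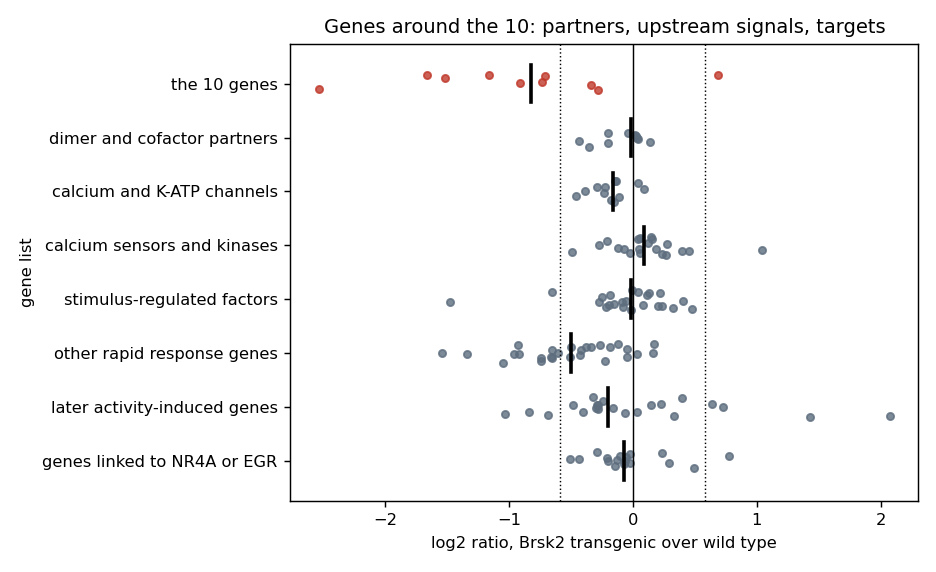
Log2 ratios of measured members of the 8 gene lists, a point per gene, with a black bar at each list's median and dotted lines at 1.5-fold. The median of the 10 genes, -0.82, and that of the other rapid response genes, -0.50, lie to the left of the medians of the other 6 lists, which run from -0.20 to 0.09.

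Likeness of pattern over 2 libraries is a single number, the ratio. Among protein-coding genes of 1000 or more reads, the 3 whose log2 ratio was nearest to the median of the 10 were Smcr8, Rbm15b and Tuba4a, with ratios of 0.565, 0.564 and 0.564.

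**Figure D5:**
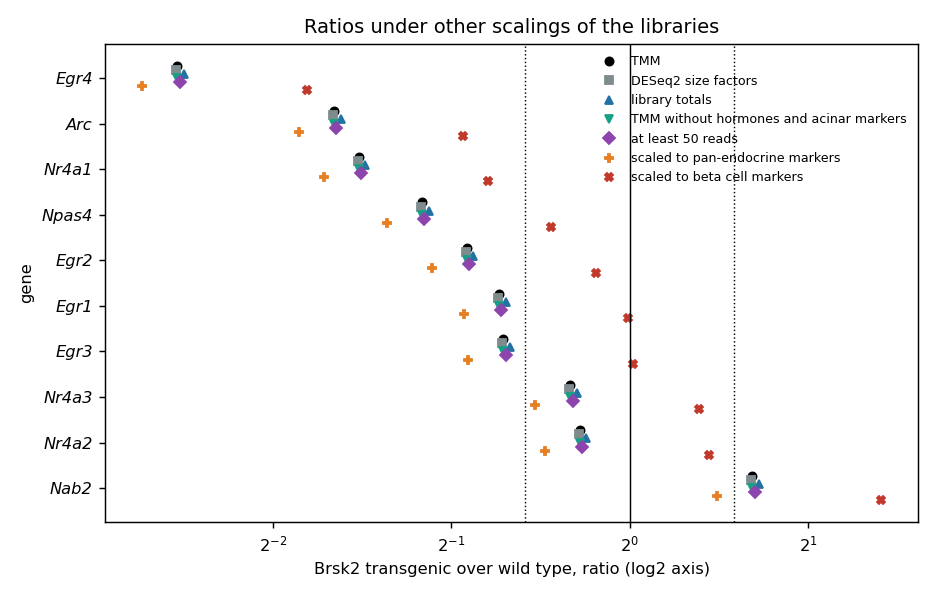
Ratio of each gene on a log2 axis under 7 ways of scaling or filtering the libraries, with dotted lines at 1.5-fold. TMM, DESeq2 size factors, library totals and the other TMM versions nearly coincide, scaling to pan-endocrine markers moves all ratios to the left by a common factor of 1.14, and scaling to beta cell markers moves them to the right.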

How the data were processed

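RNA of islets was extracted with Trizol and sequenced from TruSeq libraries, per the labels' protocols, with 1 library per genotype. The authors deposited raw read counts per gene, with gene lengths, and further tables of differing genes that hold normalized counts (signal), log2 fold changes and p-values. DESeq2 1.10.1 is named, per the submitters' processing notes. Aligner, counting program and build are not stated in the sources used here. Coordinates are those of the count table, and 98.3% of its IDs that are in GENCODE M21 (GRCm38) have the same start and end there.

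Counts were scaled by TMM factors (edgeR 4.0.16, R 4.3.3; 1.01 for the transgenic and 0.987 for the wild-type library) from genes with at least 10 reads. A read was worth 0.0586 and 0.0497 CPM, and a count of 0 would allow up to 3 reads, 0.176 and 0.149 CPM. Ratios have exact Clopper-Pearson 95% intervals and ratios between genes exact conditional ones (SciPy 1.17.1). Reads are not independent molecules, so intervals cover counting error only. No test of groups was made. Calculations were tested on simulated data.

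The 10 genes, gene lists and marker lists were chosen with earlier results of these data known. Named were all 10 genes and, in each list, the most abundant gene and the 3 whose log2 ratio was farthest from 0, given at least 100 reads; 3 genes of these lists are not reported here. Fos, Junb and the other lower rapid response genes, Lonrf1, Ptgs2, Penk, Rasgrp1, Hk2, Ier3, Zfp36l2, Bdnf, Creb1, the CRTC genes, Arnt, Arnt2, Rxra, Rxrb and Nab1 were named after their values were seen. The same holds for Rgs2, Maff and Mbp. Alternatives were DESeq2 1.42.0 size factors, library totals, TMM leaving out hormone and acinar genes, pan-endocrine scaling, other read minimums, other rules and protein-coding genes only. Promoters are from RefSeq.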

Additional observations from a re-analysis of the deposited data

How the results depend on the processing

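Scaling to the beta cell markers was chosen after seeing the data, and the other settings were planned. DESeq2 size factors, TMM without hormone and acinar genes, no read minimum, at least 50 reads and protein-coding genes only kept all 8 calls among the 10 genes; library totals kept 7, without Egr3. Scaled to pan-endocrine markers, 7 of the 10 were lower and 0 higher, beside 1973 lower and 786 higher among all measured genes, whose median log2 ratio was then -0.19. Scaled to beta cell markers, 3 were lower and 1 higher, the median log2 ratio of the 10 was -0.10, Egr3 crossed 1 at 1.01, and 96 of all measured genes were lower and 10113 higher, around a median of 0.73. Both scalings multiply every ratio by a constant. The gene lists moved with the beta cell scaling as well. Of the dimer partners and cofactors 6 of 10 were then higher, and of the later activity-induced genes 9 of 22. Of the genes linked to NR4A or EGR factors 7 of 17 were higher. None in these lists was lower under it. Of the other rapid primary response genes, 2 of 27 were lower and 6 higher under that scaling. With a 2-fold rule 4 of the 10 were lower and 0 higher, against 448 (2.53%) and 755 (4.26%) of all measured genes; where the interval bound itself had to pass 1.5-fold, 5 were lower and 0 higher, against 361 (2.04%) and 438 (2.47%), as fewer genes qualify by construction. Egr2, Egr3 and Egr4, with under 100 reads in total each, are limited by depth. No paired analysis was possible because each genotype has 1 library.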
